A study of Oryctolagus cuniculus with 24 samples.

Results

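The genes described here are the cyclin-dependent kinase inhibitors and D cyclins that brake or start the cell cycle in its first gap phase (G1), together with MDM2, in rabbit corneal keratocytes kept under 3 culture conditions. They were chosen by name: 10 symbols were looked up in the gene count table of 23428 genes, and 8 were found (CDKN1A, CDKN1B, CDKN2B, CDKN2C, CDKN2D, CCND2, CCND3 and MDM2). CDKN1C and CCND1 matched no row by name or by description and were not analysed here. All 8 found genes passed the filter on low counts, which kept 13308 genes for testing.

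Keratocytes are the resident mesenchymal cells of the corneal stroma. First-passage primary cells were plated on collagen-coated glass and cultured for 6 days, and total RNA of 8 libraries per condition was sequenced. Every group started in serum-free medium. The serum-free group (labelled keratocyte) received fresh serum-free medium on days 1 and 3. The TGF-β1 group (labelled myofibroblast) received the same medium with 5 ng/mL TGF-β1, a cytokine of wound healing, on days 1 and 3. The FBS group (labelled fibroblast) received serum-free medium on day 1 and DMEM with 10% fetal bovine serum on day 3, so it differed from the other groups in base medium as well as serum, and from the TGF-β1 group in days of exposure. Whether replicates are separate animals or cultures is not stated in the labels. The p-values therefore measure only the spread between these libraries, which may be technical. In bulk RNA a change in the number of cells of a kind cannot be told apart from a change in RNA per cell.

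As background, cells leave quiescence when a D cyclin joins CDK4 or CDK6 and the pair phosphorylates the retinoblastoma protein RB1, which then frees E2F transcription factors to switch on the genes of DNA synthesis. INK4 inhibitors (CDKN2B, CDKN2C and CDKN2D among them) bind CDK4 and CDK6 directly. CIP/KIP inhibitors (CDKN1A and CDKN1B) bind cyclin-kinase pairs and block above all those containing CDK2. CDKN1A and MDM2 are both induced in the response to DNA damage and stress, and MDM2 is a ubiquitin ligase that marks other proteins for degradation. Corneal keratocytes are quiescent in the uninjured stroma and can re-enter the cell cycle after wounding. CDKN2B is a known target of TGF-β signalling through SMAD proteins.

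The serum-free libraries held 17151397 to 21540864 counts, the TGF-β1 libraries 15410285 to 20911192 and the FBS libraries 15659561 to 22528261. The library names fall into 2 number ranges in every condition, replicates 1 to 4 (set 1) and 5 to 8 (set 2). The difference of an effect between these sets (set-by-condition term) was called for 4 of the 8 genes in TGF-β1 against serum-free beside 10.3% of all tested genes. It was called for 5 of 8 in FBS against serum-free beside 22.4%, and for 4 of 8 in TGF-β1 against FBS beside 23.9%. Values within each set are therefore given where they bear on a result. FBS replicates 5 and 6 also stood apart from the other FBS libraries for several genes described here. The keratocyte markers KERA, LUM, DCN, ALDH1A1, CD34 and AQP1 summed to 42629 to 58755 CPM (counts scaled to a common library size) in serum-free, 13830 to 22500 in TGF-β1 and 2015 to 4241 in FBS. The myofibroblast markers ACTA2 and TAGLN summed to 1.07 to 14.7 CPM in serum-free, 395 to 1030 in TGF-β1 and 407 to 1078 in FBS, so these 2 genes did not separate the 2 treated conditions. Of the 5 epithelial markers in the table KRT12 was at 0 in every library, and their sum never passed 0.764 CPM. Leukocyte markers summed to at most 25.8 CPM, mostly CD68. Of 4 vascular endothelial markers 2 were below 1 CPM in every condition, whereas KDR alone averaged 305 CPM in serum-free, and the sum was 246 to 367 CPM in serum-free, 52.0 to 113 in TGF-β1 and 13.8 to 19.0 in FBS. Schwann cell markers summed to 10.5 to 16.5, 2.15 to 5.39 and 1.38 to 3.11 CPM in the same order. These lists moved with the conditions, and their part in the results below was not tested.

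With TGF-β1 all 8 genes were called against serum-free medium: 5 rose (CDKN1A, CDKN2B, CDKN2D, CCND3 and MDM2) and 3 fell (CDKN1B, CDKN2C and CCND2). With FBS, 4 rose (CDKN1A, CDKN2C, CCND3 and MDM2) and 2 fell (CDKN1B and CCND2). The p15 gene CDKN2B was nearly silent outside TGF-β1, and the p21 gene CDKN1A was far higher in TGF-β1 than in the other 2 conditions. CDKN2C (p18) moved in opposite directions in the 2 treatments, down with TGF-β1 and up with FBS. CCND2 fell and CCND3 rose in both. Those counts stand against a background in which most genes moved. A gene was called at an adjusted p (Benjamini-Hochberg over all tested genes, edgeR quasi-likelihood test) under 0.05. Of all tested genes 64.3% were called in TGF-β1 against serum-free (31.2% higher, 33.1% lower) and 80.0% in FBS against serum-free (39.5% higher, 40.5% lower). TGF-β1 against FBS had 73.3% called (36.9% higher, 36.4% lower). The 8 members had 8, 6 and 8 calls in these comparisons, where most genes were called too. For TGF-β1 against FBS 5 were higher and 3 lower, or 3 and 3 when counts were scaled without TMM, the usual correction for library composition. The serum-free and TGF-β1 libraries did not overlap for 7 of the 8 (33.9% of all genes), the serum-free and FBS libraries for 4 of the 8 (52.9%), and the TGF-β1 and FBS libraries for 6 of the 8 (46.2%). The median log2 fold change of the 8, given beside that of all genes, was 1.00 (-0.03) for TGF-β1 over serum-free, 0.29 (-0.04) for FBS over serum-free and 0.50 (0.01) for TGF-β1 over FBS. Without TMM the medians of the 8 were 0.85, 0.52 and 0.10, those of all genes -0.17, 0.21 and -0.39. With counts summed to 2 samples per condition, CDKN2C and CDKN2D were no longer called in TGF-β1 against serum-free (edgeR adjusted p = 0.119 and 0.129), nor CDKN1A in FBS against serum-free (edgeR adjusted p = 0.145). In TGF-β1 against FBS CDKN1B, CDKN2D, CCND2 and MDM2 were not called in that fit (edgeR adjusted p = 0.0792, 0.0539, 0.273 and 0.182). The 3 comparisons share their libraries in pairs and are not independent of one another.

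**Figure D1:**
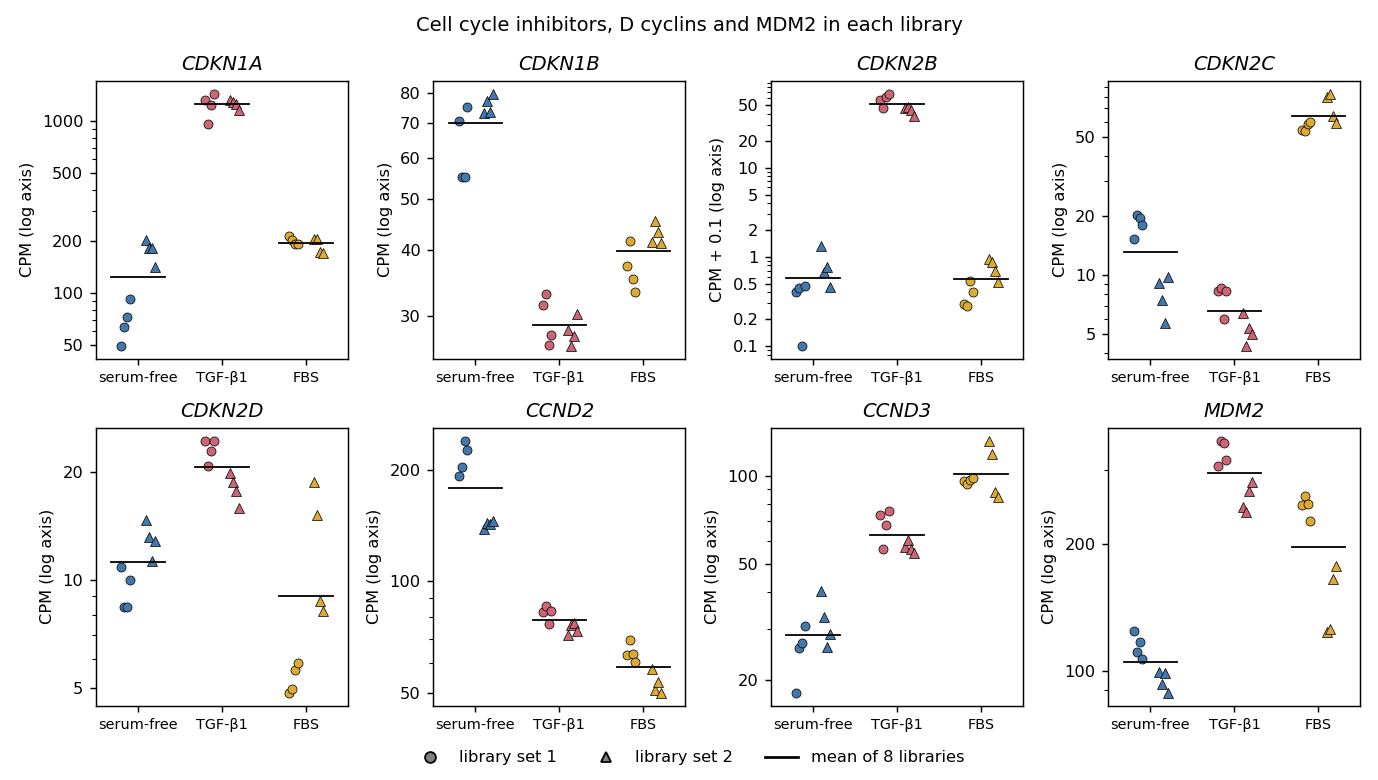
Expression of the 8 genes in every library, as CPM on a log axis (CPM + 0.1 for CDKN2B, which has a library at 0). Circles are set 1, triangles are set 2 and the bar is the mean of 8 libraries. CDKN1A and CDKN2B are far higher in TGF-β1 than in the other conditions, and CDKN2C is highest in FBS. Within serum-free CDKN1A, CDKN2C, CDKN2D, CCND2 and MDM2 split by set.

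The CIP/KIP inhibitors moved in opposite directions. CDKN1A encodes p21, an inhibitor that DNA damage and TGF-β signalling can both induce. Its row lies on chromosome 12 at 26614081 to 26621175, plus strand, with a listed length of 1933 bases. (Coordinates here and below come from the authors' table. The sources used here do not name its build.) CDKN1A was at 49.4 CPM in the lowest serum-free library, 117 at the median and 204 in the highest. The TGF-β1 libraries ran from 959 through a median of 1277 to 1445, and the FBS libraries from 171 through 199 to 214. Every TGF-β1 library was thus above every library of the other conditions, whereas the FBS libraries overlapped the upper end of the serum-free range and reached slightly above it.

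CDKN1A averaged 124 ± 61.7 CPM in serum-free (SD, n = 8), 1252 ± 145 in TGF-β1 and 195 ± 16.1 in FBS. It was 10.1-fold higher in TGF-β1 than in serum-free (log2 fold change 3.34, SE 0.23, edgeR adjusted p = 1.89e-12) and 6.41-fold higher than in FBS (log2 2.68, SE 0.23, edgeR adjusted p = 4.19e-11). For FBS against serum-free the log2 fold change was 0.66 (SE 0.21, edgeR adjusted p = 0.00673).

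That smaller change was not the same in the 2 library sets. In serum-free medium CDKN1A averaged 69.3 ± 17.9 CPM (SD, n = 4) in set 1 and 178 ± 25.8 in set 2, with no overlap, while in FBS the sets were at 201 ± 9.69 and 189 ± 20.6. The FBS effect on the log2 scale was therefore 1.54 among set 1 libraries. Among set 2 libraries it was 0.10 and did not pass the test (edgeR adjusted p = 0.410), and the difference between sets did (set-by-condition term, edgeR adjusted p = 5.55e-06). For TGF-β1 against serum-free the effect was 4.17 in set 1 and 2.82 in set 2, both called, and the difference was also called (edgeR adjusted p = 2.25e-05). Against FBS the TGF-β1 effect was 2.63 and 2.73 in the sets, with no call for the difference (edgeR adjusted p = 0.748).

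CDKN1B encodes p27, an inhibitor associated with quiescent cells whose amount is set largely by protein degradation. The gene lies on chromosome 8 at 27009890 to 27015150, minus strand, length 2675. The serum-free libraries ran from 55.2 through a median of 73.3 to 79.6 CPM. TGF-β1 libraries ran from 26.3 through 27.9 to 32.9, and FBS libraries from 33.3 through 41.3 to 45.5. The 3 conditions did not overlap, with serum-free highest and TGF-β1 lowest.

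Mean CDKN1B was 69.9 ± 9.45 CPM in serum-free (SD, n = 8), 28.8 ± 2.44 in TGF-β1 and 39.9 ± 4.15 in FBS. It was 2.43-fold lower in TGF-β1 than in serum-free (log2 -1.28, SE 0.09, edgeR adjusted p = 1.27e-12) and 1.75-fold lower in FBS (log2 -0.81, SE 0.09, edgeR adjusted p = 2.59e-09). TGF-β1 lay below FBS by a smaller margin (log2 -0.47, SE 0.09, edgeR adjusted p = 2.63e-05). The sets gave -1.11 and -1.43 for TGF-β1 and -0.79 and -0.81 for FBS, both over serum-free, and neither set difference was called (edgeR adjusted p = 0.151 and 0.917). In these cultures the inhibitor linked to quiescence was thus highest without serum or cytokine, as mRNA, and p21 mRNA was highest with TGF-β1.

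Among the INK4 inhibitors the largest change was that of CDKN2B, which encodes p15. Its row spans chromosome 1, 31778607 to 31783049, plus strand, length 2092. The TGF-β1 libraries held 578 to 1091 counts each, and the serum-free and FBS libraries 0 to 26 and 4 to 17. In CPM the TGF-β1 libraries ran from 37.6 through a median of 47.5 to 67.6. The serum-free libraries ran from 0 through 0.359 to 1.23 CPM and the FBS libraries from 0.179 through 0.430 to 0.841. Every TGF-β1 library was above every other library, and the serum-free and FBS ranges coincided.

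Mean CDKN2B was 51.3 ± 10.2 CPM in TGF-β1 (SD, n = 8) against 0.480 ± 0.360 in serum-free and 0.469 ± 0.249 in FBS. The fitted differences were 6.70 on the log2 scale against serum-free (SE 0.31, edgeR adjusted p = 6.16e-16) and 6.78 against FBS (SE 0.31, edgeR adjusted p = 1.66e-16), corresponding to 104-fold and 110-fold. At such low reference counts the fold depends on few reads. In set 1 and set 2 it was 7.82 and 5.91 against serum-free, and the difference between sets was called (edgeR adjusted p = 0.0109). For FBS against serum-free the log2 difference was -0.08 (SE 0.39, edgeR adjusted p = 0.851), and its sign changed with the libraries used, from -0.28 to 0.34 when each library was left out in turn. The gene lies inside the listed span of GNG10, a minus-strand row that the table gives as most of chromosome 1 (1624055 to 123554260). GNG10 averaged 180 ± 33.0, 200 ± 31.0 and 153 ± 14.9 CPM in serum-free, TGF-β1 and FBS. The sources used here do not say whether the counting used strand.

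CDKN2A, the neighbouring INK4 gene, which encodes p16 and ARF, was found through its row's description 33004 bases beyond the end of CDKN2B. Over 8 libraries it had 0 counts in serum-free, 33 in TGF-β1 and 19 in FBS, too few to be tested. Its mean was 0.276 ± 0.280 CPM in TGF-β1 and 0.109 ± 0.122 in FBS (SD, n = 8). With counts pooled over each group, TGF-β1 and FBS were 13.1-fold and 5.37-fold above a floor of 3 counts over the serum-free group. The medians were lower than the means, at 0.130 and 0.0738 CPM, and each SD exceeded its mean, so the folds rest on few reads. The adjoining p15 gene thus had a lowest TGF-β1 library of 37.6 CPM while the CDKN2A row stayed below 1 CPM on average.

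CDKN2C encodes p18, an INK4 protein that in many cell types accumulates as cells pass through the cycle. It lies on chromosome 13 at 115738912 to 115744842, minus strand, length 2173. The FBS libraries ran from 53.7 through a median of 59.5 to 83.3 CPM. Serum-free libraries ran from 5.68 through 12.5 to 20.1, and TGF-β1 libraries from 4.37 through 6.21 to 8.63. FBS stood clear of both other conditions, which overlapped each other.

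Mean CDKN2C was 13.1 ± 5.73 CPM in serum-free (SD, n = 8), 6.55 ± 1.67 in TGF-β1 and 64.0 ± 11.3 in FBS. FBS was 4.88-fold above serum-free (log2 2.29, SE 0.22, edgeR adjusted p = 2.92e-10), and TGF-β1 was 2.00-fold below it (it dropped by 1.00 on the log2 scale, SE 0.22, edgeR adjusted p = 3.11e-04). TGF-β1 was 9.76-fold below FBS (log2 -3.29, SE 0.23, edgeR adjusted p = 9.40e-13). The serum-free sets did not overlap, at 18.2 ± 2.12 CPM in set 1 and 8.02 ± 1.83 in set 2 (SD, n = 4). The FBS effect was accordingly 1.64 in set 1 and 3.16 in set 2 (set-by-condition term, edgeR adjusted p = 3.83e-06), and the TGF-β1 effect -1.22 and -0.60 (edgeR adjusted p = 0.0821). The cycle marker MKI67 split in the same direction in serum-free, at 12.5 ± 4.53 CPM in set 1 and 0.941 ± 0.451 in set 2. The part of that split in the CDKN2C values was not tested.

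CDKN2D encodes p19, the remaining INK4 inhibitor. Its row is on an unplaced scaffold (Un0216) at 357839 to 359973, plus strand, length 966. TGF-β1 libraries ran from 15.9 through a median of 20.4 to 24.5 CPM and serum-free libraries from 8.39 through 11.1 to 14.8. FBS libraries ran from 4.83 through 7.04 to 18.8. The 2 highest FBS values, 18.8 and 15.2 CPM, were those of replicates 5 and 6 and reached into the TGF-β1 range or just below it.

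Mean CDKN2D was 11.2 ± 2.28 CPM in serum-free (SD, n = 8), 20.7 ± 3.16 in TGF-β1 and 9.02 ± 5.21 in FBS. It was 1.84-fold higher in TGF-β1 than in serum-free (log2 0.88, SE 0.23, edgeR adjusted p = 0.00163). Set 1 alone gave 1.30 and set 2 alone 0.48, which missed the threshold (edgeR adjusted p = 0.0698), and the set difference was called (edgeR adjusted p = 0.0364). The sets did not overlap in any condition. Sets 1 and 2 averaged 9.42 ± 1.25 and 13.0 ± 1.42 CPM in serum-free (SD, n = 4). They were at 23.2 ± 1.70 and 18.1 ± 1.69 in TGF-β1, and at 5.32 ± 0.503 and 12.7 ± 5.14 in FBS. FBS against serum-free was not called (log2 -0.32, SE 0.23, edgeR adjusted p = 0.206). Without FBS replicate 5 it became -0.55 (edgeR adjusted p = 0.0131), and without FBS replicates 5 and 6 it became -0.80 (edgeR adjusted p = 5.65e-05). TGF-β1 exceeded FBS by 1.20 (SE 0.23, edgeR adjusted p = 4.69e-05), or by 1.69 without those 2 FBS libraries. That effect was 2.12 in set 1 and 0.50 in set 2, a called difference (set-by-condition term, edgeR adjusted p = 5.70e-05).

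The 2 D cyclins that could be measured moved apart. CCND2, on chromosome 8 at 30387709 to 30411513, plus strand, length 5758, was highest without serum or cytokine. Its serum-free libraries ran from 139 through a median of 169 to 240 CPM. TGF-β1 libraries ran from 71.8 through 77.1 to 86.0, and FBS libraries from 49.9 through 59.1 to 69.4. The 3 conditions did not overlap.

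CCND2 averaged 179 ± 41.5 CPM in serum-free (SD, n = 8), 78.4 ± 5.09 in TGF-β1 and 58.6 ± 6.83 in FBS. It was 2.29-fold lower in TGF-β1 (log2 -1.19, SE 0.11, edgeR adjusted p = 4.67e-10) and 3.06-fold lower in FBS than in serum-free (log2 -1.61, SE 0.11, edgeR adjusted p = 4.77e-13). The small difference between the treatments (log2 0.42 for TGF-β1 over FBS, SE 0.11, edgeR adjusted p = 0.00123) was not called when counts were scaled to library size without TMM (0.02, edgeR adjusted p = 0.860). Serum-free set 1 stood above set 2, at 216 ± 21.2 and 143 ± 2.95 CPM (SD, n = 4), so the falls were steeper in set 1: -1.39 against -0.93 for TGF-β1 and -1.75 against -1.42 for FBS, with set-by-condition terms at edgeR adjusted p = 0.00304 and 0.0206. The CCND2 row shares 2154 bases with a minus-strand row, LOC108177000, which averaged below 1 CPM in every condition.

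CCND3, on chromosome 12 at 31536021 to 31537660, minus strand, length 1224, went the other way. Serum-free libraries ran from 18.1 through a median of 27.8 to 40.2 CPM. TGF-β1 libraries ran from 54.3 through 58.6 to 75.8, and FBS libraries from 84.6 through 96.4 to 132. Again the conditions did not overlap, now with FBS at the top and serum-free at the bottom.

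CCND3 averaged 28.6 ± 6.40 CPM in serum-free (SD, n = 8), 62.6 ± 8.54 in TGF-β1 and 101 ± 16.1 in FBS. It was 2.19-fold higher in TGF-β1 (log2 1.13, SE 0.12, edgeR adjusted p = 1.17e-08) and 3.53-fold higher in FBS than in serum-free (log2 1.82, SE 0.13, edgeR adjusted p = 4.88e-13). TGF-β1 was below FBS (log2 -0.69, SE 0.12, edgeR adjusted p = 1.42e-05). No set difference was called for CCND3 (edgeR adjusted p = 0.0638, 0.519 and 0.153 in the 3 comparisons).

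MDM2, the ubiquitin ligase, lies on chromosome 4 at 47780978 to 47813244, plus strand, length 3078. Serum-free libraries ran from 88.4 through a median of 103 to 124 CPM. TGF-β1 libraries ran from 239 through 293 to 352, and FBS libraries from 123 through 202 to 259. The TGF-β1 libraries were clear of serum-free, and the FBS libraries overlapped both.

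MDM2 averaged 105 ± 12.1 CPM in serum-free (SD, n = 8), 294 ± 43.4 in TGF-β1 and 197 ± 55.9 in FBS. It was 2.81-fold higher in TGF-β1 than in serum-free (log2 1.49, SE 0.14, edgeR adjusted p = 8.85e-10), with 1.53 and 1.45 in the sets. FBS was 1.88-fold above serum-free (log2 0.91, SE 0.14, edgeR adjusted p = 1.59e-06), with 1.11 in set 1 and 0.65 in set 2, a called difference (edgeR adjusted p = 0.0146). The FBS sets did not overlap, at 245 ± 13.8 and 148 ± 27.6 CPM (SD, n = 4). Nor did the sets of serum-free (114 ± 7.76 and 94.8 ± 5.23) or TGF-β1 (331 ± 22.0 and 258 ± 19.4). The excess of TGF-β1 over FBS (log2 0.58, SE 0.14, edgeR adjusted p = 5.84e-04) was not called without TMM (0.17, edgeR adjusted p = 0.250).

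**Figure D2:**
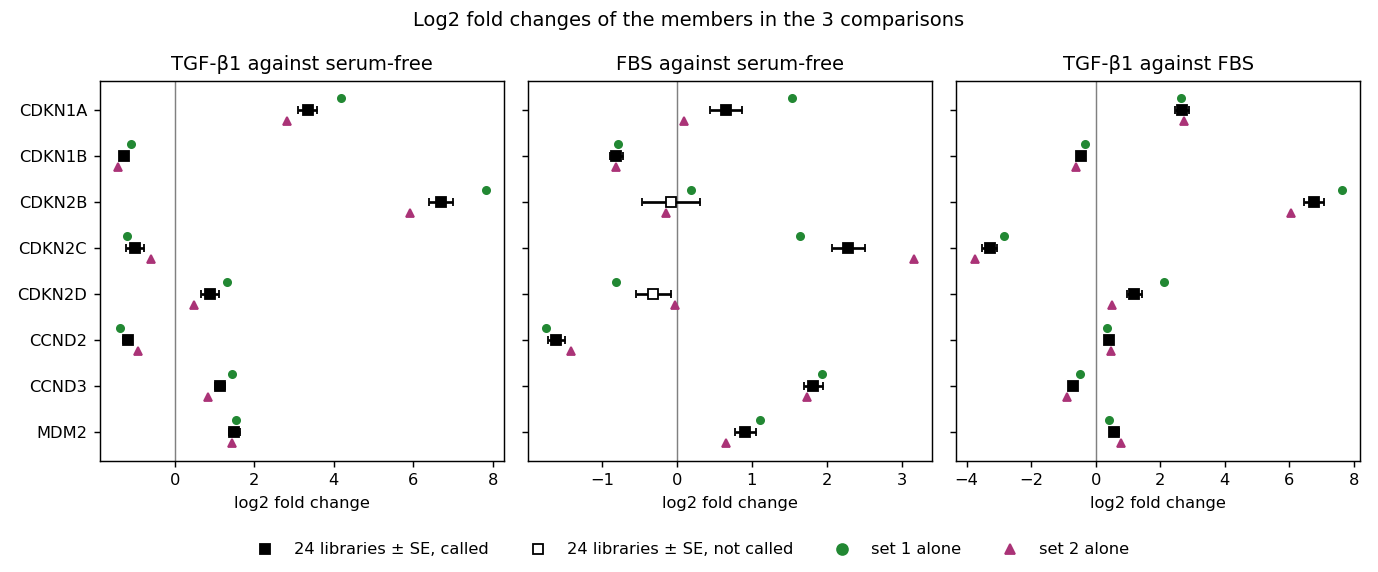
Log2 fold change of each gene in the 3 comparisons. Squares are the estimates over all libraries with their SE (filled where called), circles are set 1 alone and triangles set 2 alone. CDKN2B lies between 5.91 and 7.82 in TGF-β1 against serum-free, and among the effects of FBS against serum-free those on CDKN1A and CDKN2C differ most between sets.

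Levels of different genes can be set side by side only per length, for which the deposited FPKM (fragments scaled to gene length and library size) served. CDKN1A had the highest mean in all 3 conditions, at 63.7 ± 31.4 FPKM in serum-free (SD, n = 8), 648 ± 76.7 in TGF-β1 and 101 ± 7.95 in FBS, which placed it at the 93.3, 99.4 and 94.3 percentile of tested genes. In serum-free it was above MDM2 in 5 of 8 libraries, and its mean in set 1, 36.1 FPKM, was below those of CCND2 (37.8) and MDM2 (37.4), with 91.3 FPKM in set 2. The serum-free order below it was MDM2 (34.0), CCND2 (31.2), CDKN1B (26.1), CCND3 (23.4), CDKN2D (11.6), CDKN2C (6.04) and CDKN2B (0.229). Each neighbour in that order overlapped the next over the libraries except CDKN2C and CDKN2B.

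In TGF-β1 the FPKM order was CDKN1A, MDM2 (95.5), CCND3 (51.2), CDKN2B (24.5), CDKN2D (21.4), CCND2 (13.6), CDKN1B (10.8) and CDKN2C (3.01). Neighbours did not overlap, except CDKN2B and CDKN2D, whose ranges did although CDKN2B was the higher in 8 of 8 libraries. In FBS the order was CDKN1A, CCND3 (82.3), MDM2 (63.8), CDKN2C (29.4), CDKN1B (14.9), CCND2 (10.2), CDKN2D (9.29) and CDKN2B (0.223). There CDKN1A overlapped CCND3, CCND3 overlapped MDM2 and CCND2 overlapped CDKN2D. CDKN2B moved from the 4.49 percentile of tested genes in serum-free to the 77.7 percentile in TGF-β1, and CDKN2C from the 44.3 percentile in serum-free to the 80.2 percentile in FBS.

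Summed over the 2 measured D cyclins, FPKM was 54.5 ± 7.28 in serum-free (SD, n = 8), 64.8 ± 7.34 in TGF-β1 and 92.4 ± 12.3 in FBS. CCND2 made up 56.9% ± 9.32 of that sum in serum-free, 21.2% ± 1.94 in TGF-β1 and 11.1% ± 1.83 in FBS. Per listed length CCND3 was thus the more abundant of the pair in both treated conditions. These shares depend on the listed lengths, 5758 bases for CCND2 and 1224 for CCND3, which were not checked. In serum-free the CCND2 share was 64.7% in set 1 and 49.1% in set 2. CCND1 is not part of the sum.

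The 5 inhibitors together summed to 108 ± 33.1 FPKM in serum-free (SD, n = 8), 708 ± 80.3 in TGF-β1 and 154 ± 14.2 in FBS. CDKN1A made up 56.0% of that sum in serum-free, 91.5% in TGF-β1 and 65.4% in FBS. The second inhibitor was CDKN1B in serum-free, with 25.8%, CDKN2B in TGF-β1, with 3.46%, and CDKN2C in FBS, with 18.9%. The ratio of the inhibitor sum to the D cyclin sum was 2.03 ± 0.75 in serum-free, 10.96 ± 1.09 in TGF-β1 and 1.68 ± 0.0913 in FBS. It was 1.35 in set 1 and 2.72 in set 2 of serum-free, on either side of the FBS value. These are mRNA levels, and the sums leave out CDKN1C and CCND1.

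**Figure D3:**
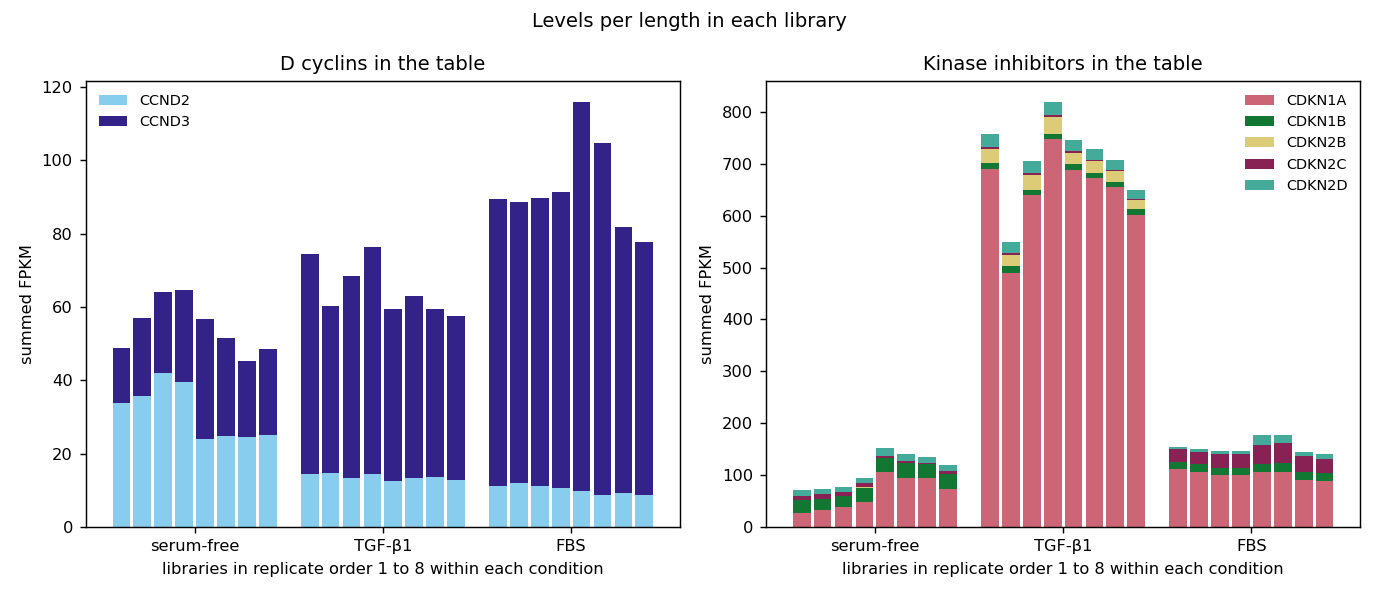
Stacked FPKM of the inhibitors and of the D cyclins in each library, in replicate order within each condition. The inhibitor bars are tallest in TGF-β1, where CDKN1A makes up 91.5% of the sum on average, and the D cyclin bars are mostly CCND3 in TGF-β1 and FBS, while in serum-free CCND2 averages 64.7% in set 1 and 49.1% in set 2.

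The kinases that D cyclins bind were higher in both treatments. CDK4 averaged 62.7 ± 5.12 CPM in serum-free (SD, n = 8), 88.2 ± 6.03 in TGF-β1 and 239 ± 23.4 in FBS, with log2 fold changes of 0.49 and 1.93 against serum-free (edgeR adjusted p = 6.51e-07 and 9.95e-19). CDK6 averaged 31.3 ± 5.11, 106 ± 13.0 and 178 ± 85.9 CPM, log2 1.75 and 2.51 against serum-free (edgeR adjusted p = 4.37e-07 and 4.82e-10). The FBS sets of CDK6 were far apart, at 253 and 102 CPM, so TGF-β1 against FBS was -1.23 in set 1 and 0.01 in set 2 (set-by-condition term, edgeR adjusted p = 0.00135). RB1, the substrate, averaged 31.3 ± 6.67, 22.7 ± 4.18 and 42.2 ± 11.7 CPM, log2 -0.46 for TGF-β1 and 0.43 for FBS (edgeR adjusted p = 0.0190 and 0.0207), with overlapping libraries.

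A list of 21 G1 kinases, E cyclins, pocket proteins, E2F factors and related inhibitors, of which 20 were tested, had 6 members higher and 5 lower in TGF-β1 against serum-free, with a median log2 fold change of -0.02. Those counts are at or below the shares of all tested genes (31.2% higher, 33.1% lower). In FBS against serum-free 17 were higher and 2 lower (all genes 39.5% and 40.5%), with a median of 2.54, and in TGF-β1 against FBS 2 were higher and 17 lower (all genes 36.9% and 36.4%), median -1.75. The activator E2F1 went from 1.23 ± 0.988 CPM in serum-free to 40.8 ± 4.87 in FBS (log2 5.03, edgeR adjusted p = 4.19e-13) and was at 0.833 ± 0.337 in TGF-β1. The repressor E2F8, itself an E2F target, rose by 5.73 and E2F7 by 5.20 on the log2 scale in FBS, and the phosphatase gene CDKN3 by 4.61. In TGF-β1 CDKN3 rose by 1.38 (edgeR adjusted p = 7.56e-05), while E2F2 and E2F8 fell from levels already below 1 CPM (log2 -2.38 and -1.81). The E2F8 value was -2.65 without TGF-β1 replicate 1, and without serum-free replicate 2 it was -1.53 and not called (edgeR adjusted p = 0.0593).

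Markers of S phase and mitosis separated FBS from both other conditions. All 25 listed genes rose in FBS against serum-free (median log2 fold change 4.95), beside 39.5% of all tested genes. All 25 were lower in TGF-β1 than in FBS (median -5.72), beside 36.4% of all tested genes. MKI67, the common marker of cycling cells, averaged 6.72 ± 6.86 CPM in serum-free (SD, n = 8), 3.01 ± 1.55 in TGF-β1 and 425 ± 153 in FBS. CCNB1 rose by 6.59, CDC20 by 6.77, AURKB by 6.73 and BIRC5 by 6.61 on the log2 scale in FBS (BIRC5 by 7.26 without serum-free replicate 3).

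In TGF-β1 against serum-free only 2 of the 25 markers rose and 9 fell (median -0.71), beside 31.2% and 33.1% of all genes. Without TMM 1 rose and 14 fell, beside 24.2% and 40.3% of all genes. The counts also depended on the library set. In set 1 alone 1 rose and 18 fell (median -1.02), whereas in set 2 alone 5 rose and 4 fell (median 0.29). The replication gene MCM5 fell by 1.96 on the log2 scale over all libraries, with -2.84 in set 1 and -0.81 in set 2 (set-by-condition term, edgeR adjusted p = 7.68e-04). MKI67 was not called over all libraries (log2 -1.15, edgeR adjusted p = 0.0658). Its means went opposite ways in the sets. In set 1 MKI67 was at 12.5 CPM in serum-free and 4.13 in TGF-β1, in set 2 at 0.941 and 1.89. Leaving out 1 library gave -1.39 to -0.76. MKI67 was called on leaving out TGF-β1 replicate 2 or any one of serum-free replicates 5 to 8, which are the set 2 libraries. FOXM1, a transcription factor of mitotic genes, fell in both sets (log2 -2.21 over all libraries, -1.91 and -2.80 in the sets).

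Genes that set the stability of D cyclins and CIP/KIP proteins were a mixed group of 17, all tested. In TGF-β1 against serum-free 7 rose and 1 fell (median 0.14), or 4 and 3 without TMM (median -0.01), beside 31.2% and 33.1% of all genes. SKP2, which recognises p27 for degradation, was the one that fell: 21.9 ± 5.74 CPM in serum-free (SD, n = 8), 7.29 ± 1.49 in TGF-β1 and 49.2 ± 17.7 in FBS (log2 -1.59 and 1.17, edgeR adjusted p = 2.57e-07 and 6.49e-06). CRYAB, a small heat shock protein that also serves an F-box complex, went from 77.8 ± 9.72 to 348 ± 54.8 CPM in TGF-β1 (log2 2.16), and GSK3B, a kinase that phosphorylates D cyclins, rose by 0.85. In FBS against serum-free 9 rose and 5 fell (median 0.25), near the 80.0% called among all genes, or 11 and 3 without TMM (median 0.51). The SKP2 partner CKS1B rose by 3.40 and its relative CKS2 by 6.57, and DTL, which directs p21 to degradation in S phase, by 5.37 on the log2 scale. Against FBS, 7 were higher in TGF-β1 and 8 lower (median -0.19), or 3 and 10 without TMM (median -0.59), with 73.3% of all genes called. CDKN1B mRNA and SKP2 mRNA thus both fell with TGF-β1, and in FBS CDKN1B fell while SKP2 rose.

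From a list of 27 genes of the DNA damage and stress response that leaves out CDKN1A and MDM2, 25 were tested (PMAIP1 and TNFRSF10B were not matched). In TGF-β1 against serum-free 17 rose and 2 fell (median 1.00), beside 31.2% and 33.1% of all genes. In FBS against serum-free 13 rose and 8 fell (median 0.31), near the 80.0% of all genes called, or 15 and 5 without TMM (median 0.57). Of the same genes 17 were higher and 5 lower in TGF-β1 than in FBS (median 0.69; all genes 36.9% and 36.4%), or 13 and 7 without TMM (median 0.29). GADD45A, a stress-induced gene, went from 17.6 ± 10.4 CPM in serum-free to 158 ± 27.0 in TGF-β1 (log2 3.16, edgeR adjusted p = 5.13e-11). SESN2 and PLK3 rose by 2.80 and 2.79 on the log2 scale in TGF-β1.

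Not every gene of the list followed CDKN1A. The death receptor FAS was higher in FBS (41.1 ± 12.7 CPM) than in TGF-β1 (3.93 ± 0.849) or serum-free (0.419 ± 0.236). PLK2 rose by 3.96 on the log2 scale in FBS, with 5.59 in set 1 and 2.74 in set 2 (set-by-condition term, edgeR adjusted p = 1.49e-07). The DNA repair gene DDB2 fell in FBS from 179 ± 6.99 to 26.5 ± 2.90 CPM (log2 -2.75, edgeR adjusted p = 2.26e-21). BBC3, which promotes cell death, was like CDKN1A highest in TGF-β1, by 2.67 over FBS on the log2 scale. Its mean was however lower in FBS (1.64 ± 0.816 CPM) than in serum-free (3.70 ± 2.33), with 10.4 ± 2.27 in TGF-β1.

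Of 20 transcription factors known to act on these genes 17 were tested (JUNB was not matched). In TGF-β1 against serum-free 11 rose and 3 fell (median 0.43), or 9 and 4 without TMM, beside 31.2% and 33.1% of all genes. In FBS 6 rose and 6 fell (median 0.06), or 8 and 5 without TMM (median 0.33), beside 39.5% and 40.5% of all genes. TGF-β1 had 10 higher and 5 lower than FBS (median 0.45), beside 36.9% and 36.4% of all genes, and 7 and 6 without TMM (median 0.05). MYC, which can repress CDKN1A and CDKN2B, averaged 17.6 ± 4.59 CPM in serum-free (SD, n = 8), 43.4 ± 5.34 in TGF-β1 and 161 ± 19.0 in FBS. It rose in both treatments (log2 1.30 with TGF-β1 and 3.19 with FBS, edgeR adjusted p = 1.83e-09 and 2.17e-17). SMAD3, a transducer of TGF-β signalling, fell from 125 ± 17.8 CPM in serum-free to 66.2 ± 6.49 in TGF-β1 (log2 -0.92, edgeR adjusted p = 2.46e-08) and 20.1 ± 3.86 in FBS (log2 -2.64, edgeR adjusted p = 1.87e-17). HES1, a repressor downstream of Notch, rose in both treatments, by 2.95 and 2.98.

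KLF4, an activator of CDKN1A, rose by 1.45 in TGF-β1, and CEBPB and FOS by 1.55 and 1.69. The FOS libraries overlapped: serum-free ran from 1.25 through a median of 2.30 to 41.2 CPM, and without the highest of these, serum-free replicate 3, the FOS rise was 2.71. FOXO1 and FOXO3, which can activate CDKN1B, were higher in TGF-β1 than in FBS by 2.02 and 1.90, and CDKN1B was lower there. FOXO1 averaged 19.1 ± 2.39 CPM in serum-free (SD, n = 8), 31.9 ± 3.32 in TGF-β1 and 7.85 ± 1.57 in FBS. FOXO3 averaged 171 ± 17.7, 159 ± 28.0 and 42.7 ± 5.93 CPM in the same order. Their part in the CDKN1B levels was not tested.

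**Figure D4:**
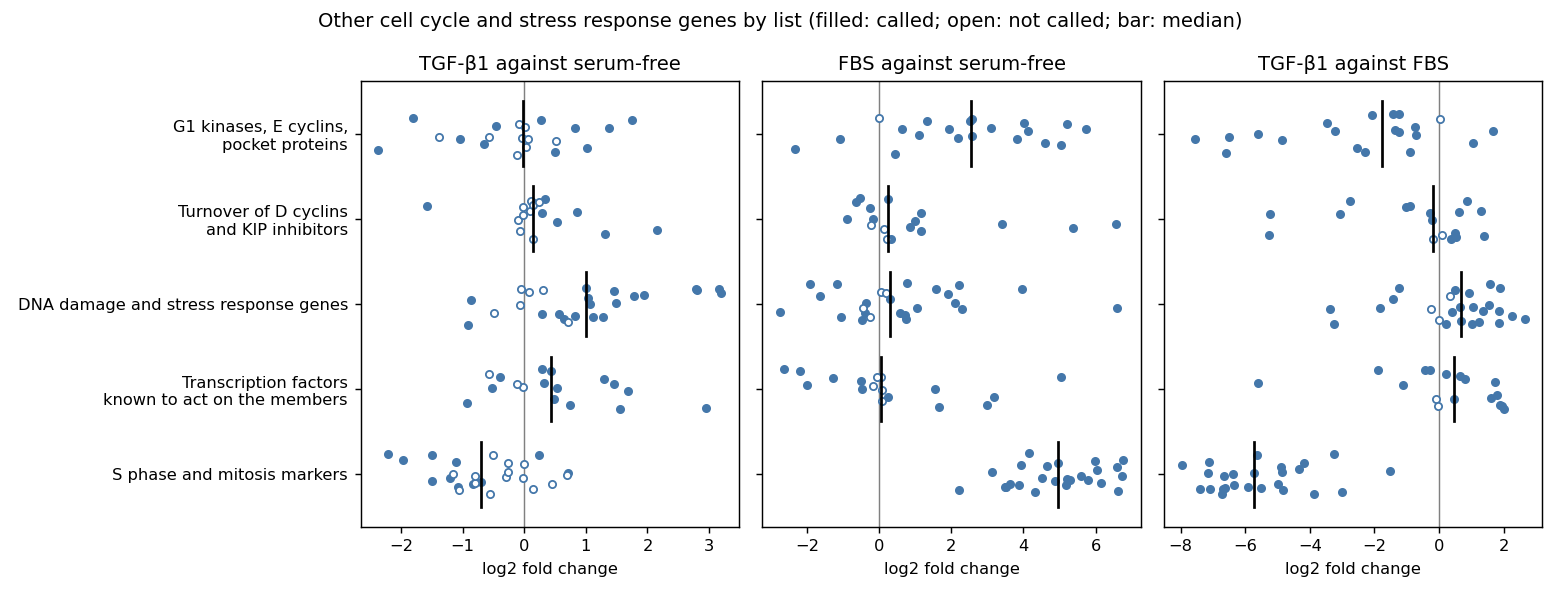
Log2 fold change of every tested gene of the 5 pathway lists in the 3 comparisons, filled where called and open where not, with a bar at the list's median. The S phase and mitosis markers have medians of 4.95 in FBS against serum-free and -5.72 in TGF-β1 against FBS, and the DNA damage and stress response list has its highest median, 1.00, in TGF-β1 against serum-free.

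Finally, among 11268 named genes those with the highest correlation of log2 CPM with each member over the 24 libraries were listed as a description. The libraries share conditions and sets, so high values are easily reached. With the condition means removed, r of the listed genes ran from 0.331 (SLC37A2 with CDKN2B) to 0.960 (PTP4A1 with MDM2). CDKN1A was followed most closely by EDEM1 (r = 0.989), TGIF1 (0.983) and BHLHE40 (0.982). BHLHE40 averaged 31.3 CPM in serum-free, 330 in TGF-β1 and 64.7 in FBS. CDKN1B was followed by TNS2 (0.971), EMILIN2 (0.967) and DTX3L (0.963).

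For CDKN2B the closest were LRRC15 (0.991), SPSB1 (0.989) and SLC37A2 (0.988). LRRC15 averaged 1.502 CPM in serum-free, 376 in TGF-β1 and 1.20 in FBS, the same near-silence outside TGF-β1. For CDKN2C they were STMN1 (0.982), CDCA8 (0.979) and TCF19 (0.978), with STMN1 at 5.11, 1.72 and 259 CPM. For CDKN2D they were LAMTOR4 (0.958), BTBD6 (0.955) and SLC39A13 (0.951).

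CCND2 was followed by PPP1R3C (0.985), CCDC112 (0.983) and NFIA (0.976), and NFIA averaged 296, 54.4 and 34.9 CPM in the order serum-free, TGF-β1 and FBS. CCND3 was followed by PLP2 (0.981), C4H20orf27 (0.979) and ARPC4 (0.978), with PLP2 at 18.5, 54.1 and 102 CPM. MDM2 was followed by FLRT2 (0.990), PTP4A1 (0.985) and SSFA2 (0.984), and FLRT2 stood at 58.0, 161 and 107 CPM. No member of the group was among the 3 closest genes of another.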

How the data were processed

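RNA of 24 libraries was sequenced, 8 per condition. The authors deposited a table of raw counts per gene and a table of FPKM, per the file headers. The sources used here name no aligner, counter, strand setting, build or annotation. Counts were fitted with edgeR 4.0.16 in R 4.3.3: filterByExpr kept 13308 genes, libraries were scaled by TMM, all 24 libraries entered 1 fit with 1 coefficient per condition, and comparisons used its quasi-likelihood F-test, with p-values adjusted by Benjamini-Hochberg over all tested genes. The SE is the log2 fold change divided by the square root of F. Differences between library sets were tested as a set-by-condition term. CPM use the TMM sizes. The fit was tested on simulated data. Those were independent counts without differences between library sets, so that test does not cover the set differences seen here.

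Members and lists were chosen with earlier results of these data known. In the text stand all members. From each other list and comparison stand up to 4 called genes with the largest change, with CDK4, CDK6, RB1, CDKN2A and MKI67 whatever their values (some genes that this rule names are not reported here). Each member has the 3 named genes most correlated with it.

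The conditions share replicate numbers. Deviations from the condition means of same-numbered libraries correlated at 0.200 to 0.436 for TGF-β1 and serum-free, 0.136 to 0.509 for FBS and serum-free, and 0.135 to 0.405 for TGF-β1 and FBS. The library of the same number was the best match in 6, 7 and 6 of 16 cases, in that order. These deviations include any difference between library sets that the conditions share, so the correlations cannot by themselves show pairing by number. The labels do not state a pairing. The main fit was unpaired, and a fit with the replicate block was run as an alternative. No libraries of a condition matched within sampling noise. Alternatives comprised other scaling, filters, sample sets, DESeq2 1.42.0 and limma 3.58.1 on log2(FPKM + 0.5).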

Additional observations from a re-analysis of the deposited data

Results flagged for a closer look

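For 13 effects the difference between library sets passed the test of the set-by-condition term (edgeR adjusted p under 0.05). They are given as the log2 fold change in set 2 minus that in set 1. The term was called for 4 of 8 genes in TGF-β1 against serum-free (10.3% of all genes), 5 of 8 in FBS against serum-free (22.4%) and 4 of 8 in TGF-β1 against FBS (23.9%).

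For TGF-β1 against serum-free the differences were -1.35 for CDKN1A, -1.91 for CDKN2B, -0.83 for CDKN2D and 0.46 for CCND2, so all 4 effects were smaller in set 2. For FBS against serum-free they were -1.45 for CDKN1A, 1.52 for CDKN2C, 0.78 for CDKN2D, 0.32 for CCND2 and -0.46 for MDM2. Of these only the CDKN2C effect was larger in set 2. For TGF-β1 against FBS they were -1.58 for CDKN2B, -0.90 for CDKN2C, -1.61 for CDKN2D and 0.37 for MDM2. In set 2 of this comparison the differences of CDKN2C and MDM2 were thus larger and those of CDKN2B and CDKN2D smaller. The labels give no more than library numbers for the sets.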

How the results depend on the processing

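CDKN2B gave no value for FBS against serum-free when only those 16 libraries were fitted, since it then failed the count filter. Over 35 alternatives and the 8 genes in 3 comparisons, 817 values kept their direction and side of the threshold, 11 lost the call, 3 gained one and 8 changed sign. Of the 35 alternatives 24 left out 1 library each, in part a library of the condition outside the comparison. Such fits share nearly all their data with the main fit, so the 817 values are not independent checks. The 8 sign changes were all CDKN2B in FBS against serum-free, which was never called: 0.16 without TMM, 0.18 in set 1, 0.026 with counts summed per condition and set, 0.0051 with limma on FPKM, and -0.28 to 0.34 when 1 library was left out (0.34 without serum-free replicate 5, 0.03 without FBS replicate 1, 0.05 without FBS replicate 2, 0.00029 without FBS replicate 4).

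Summing counts to 2 samples per condition left 1783 genes higher and 1830 lower in TGF-β1 than in serum-free, and 2756 higher and 3175 lower in TGF-β1 than in FBS, where 2 members were still called higher. Of the 11 lost calls 7 came from this setting. They were CDKN2C and CDKN2D in TGF-β1 over serum-free, CDKN1A in FBS over serum-free, and CDKN1B, CDKN2D, CCND2 and MDM2 in TGF-β1 over FBS. With set 2 alone CDKN2D in TGF-β1 over serum-free and CDKN1A in FBS over serum-free lost the call. Without TMM CCND2 and MDM2 lost it in TGF-β1 over FBS. The summed setting has fewer samples and rests on the spread between sets. The cause of the lost calls was not tested. Without TMM 3131 genes and 3 members were higher in TGF-β1 than in FBS. The share of calls that were higher was then 37.5% (48.5% with TMM) in TGF-β1 over serum-free, 58.3% (49.4%) in FBS over serum-free and 31.5% (50.4%) in TGF-β1 over FBS, as the median of all genes moved to -0.17, 0.21 and -0.39. Under DESeq2 the FBS against serum-free median was -0.23, over 17444 genes rather than the 13308 of the main fit, so it is not like for like.

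With the replicate block TGF-β1 had 4626 genes above and 4759 below serum-free, FBS had 5488 above and 5616 below serum-free, and TGF-β1 had 5243 above and 5068 below FBS. The block changed no member's call. Depth limits CDKN2B outside TGF-β1 and the CDKN2A row, which rest on few counts.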
